A study of Capra hircus with 40 samples.

Results

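The uterus of Jining gray goats was compared between month 4 and day 1 after birth, by small RNA sequencing of mature microRNAs (miRNAs). The members were the 5 uterus libraries of month 4 and the 5 uterus libraries of day 1, 10 of the 40 libraries in the series, with all 427 miRNA entries of the read-count table. Of these entries 331 passed the filter on low counts and were tested. The other 96 entries summed to at most 199 reads each over the 10 libraries.

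The series sampled ovary and uterus of this Chinese goat breed at day 1, month 2, month 4 and month 6, with 5 numbered individuals in each of 8 groups of tissue and age. Its title places the ages along sexual maturation. All animals were of the same breed, and no treatment, genotype or diet was given for any group. The part of the uterus, the litter and the stage of the cycle at month 4 were not given, nor was it stated whether equally numbered organs of an age belonged to 1 animal.

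Mature miRNAs are short RNAs that guide Argonaute proteins to messenger RNAs, which are then repressed or degraded. Each is cut from a hairpin precursor whose 5′ and 3′ arms can both give a mature strand, and many hairpins lie in clusters that are transcribed together. Some miRNAs mark cell types: the miR-143/miR-145 cluster is rich in smooth muscle, the miR-200 family in epithelium, and miR-150 in lymphocytes. Uterine tissue holds a muscular wall, a stroma and a lining with glands, and the glands form after birth in ruminants. In whole tissue, fewer cells of a type and less RNA per cell cannot be told apart.

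Levels are given as counts scaled to a library total of 1000000 reads (CPM), and groups as mean ± SD with n = 5 libraries. Library totals ran from 7005651 to 8442089 reads at day 1 and from 5502588 to 7810745 at month 4. Day 1 libraries detected 385 ± 1.67 entries and month 4 libraries 356 ± 12.6. Within the 10 libraries the first principal component held 61.6% of the variance, with day 1 between -17.3 and -12.7 and month 4 between 8.56 and 30.4. Month 4 replicate 5 stood apart at 30.4, with the lowest total and the fewest detected entries, 334, and it was the month 4 library farthest from day 1 for 85 of the 176 called miRNAs. Month 4 replicate 4 was farthest for 40, and month 4 replicate 1 lay within the day 1 range for 24 of them. Day 1 replicates 3 and 5 differed from the other day 1 libraries in miR-34c and in the ratio of miR-10a-5p to miR-10b-5p, as described with those families.

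At both ages a few miRNAs made up most of the reads. The 10 most abundant entries of a library held 72.3% ± 1.75 of reads at day 1 and 66.8% ± 2.72 at month 4. miR-143-3p, the main product of the smooth muscle cluster, was the most abundant miRNA in all 5 day 1 libraries and in month 4 replicates 2, 4 and 5. In month 4 replicate 1 that place was taken by miR-10b-5p, from a HOX gene cluster, and in replicate 3 by let-7a-5p. The day 1 libraries held 316509, 268367, 324755, 224150 and 292105 CPM of miR-143-3p, and the month 4 libraries 88156, 132608, 91733, 163764 and 204850 CPM. Every month 4 library lay below every day 1 library. The log2 change was -0.96 ± 0.34 (SE, adjusted p = 0.0235). It missed the threshold without day 1 replicate 3 (adjusted p = 0.0595), month 4 replicate 1 (0.0512) or month 4 replicate 3 (0.0836), and with no filter on low counts (0.112).

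let-7a-5p, a let-7 member that represses growth-promoting messages, moved the other way among the abundant entries. It held 22406, 16057, 16484, 21790 and 20812 CPM at day 1 and 67549, 96680, 101803, 28359 and 122967 CPM at month 4, a log2 change of 2.16 ± 0.44 (SE, adjusted p = 0.000563). The groups did not overlap, although month 4 replicate 4 lay close to day 1. miR-148a-3p averaged 80143 ± 6765 CPM at day 1 and 26250 ± 25186 at month 4, where replicate 4 alone reached 70499. Its log2 change was -1.39 ± 0.72 (SE, adjusted p = 0.102). Changes in the other abundant entries, miR-10b-5p (0.78 ± 0.42), miR-26a-5p (0.84 ± 0.41), miR-99a-5p (0.86 ± 0.43), let-7f-5p (-0.31 ± 0.29), let-7i-5p (-0.51 ± 0.34), miR-27b-3p (-0.32 ± 0.30) and miR-10a-5p (-0.59 ± 0.47), did not pass the test. Their adjusted p-values ran from 0.0843 for miR-26a-5p to 0.362 for let-7f-5p.

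**Figure D1:**
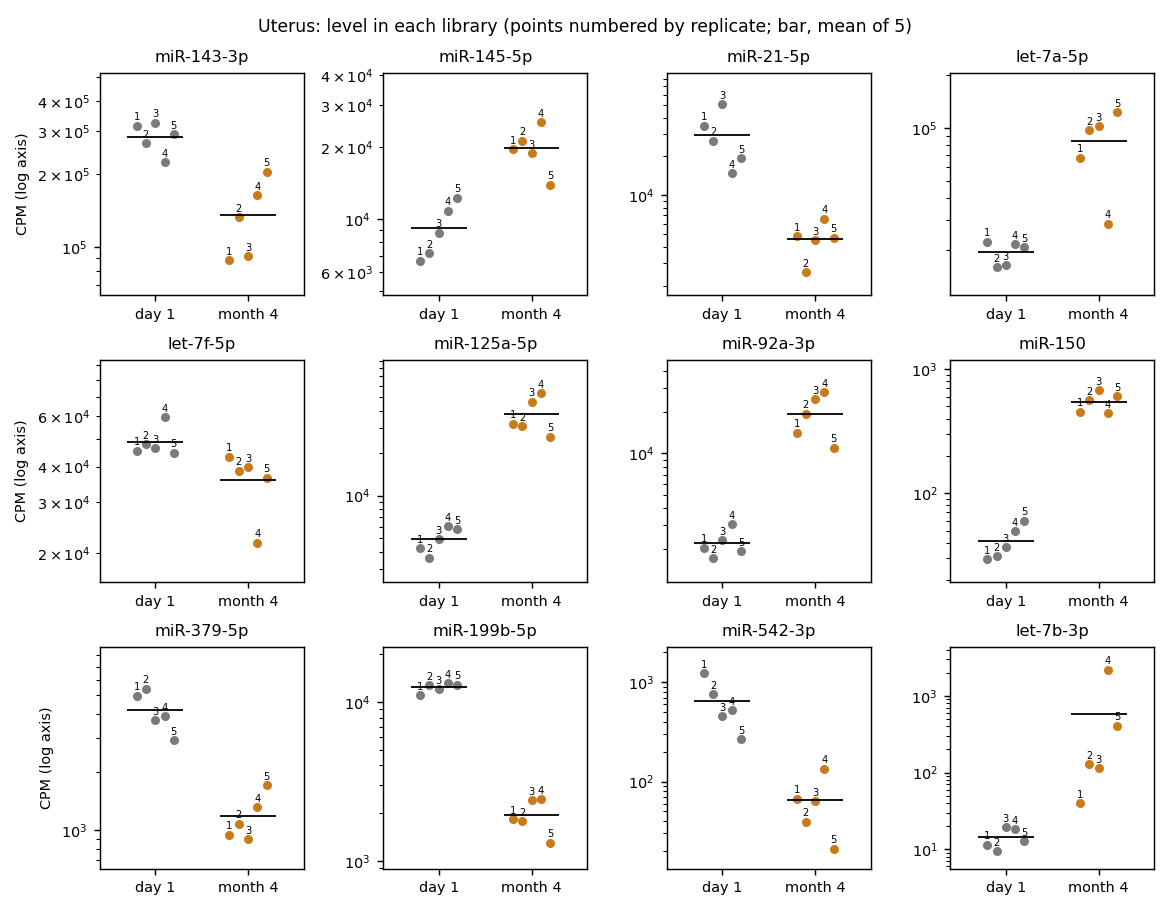
Level of 12 miRNAs in each of the 10 uterus libraries (CPM, log axis), with points numbered by replicate and a bar at the mean of 5. miR-150, miR-92a-3p and miR-125a-5p lie higher at month 4 without overlap, miR-21-5p, miR-379-5p, miR-199b-5p and miR-542-3p lower, and month 4 replicate 4 stands at 2209 CPM of let-7b-3p.

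Over all 331 tested miRNAs, edgeR's quasi-likelihood test with Benjamini-Hochberg adjustment called 176, or 53.2%, at an adjusted p under 0.05. There were 89 higher at month 4 (26.9%) and 87 lower (26.3%), and the median log2 change of all tested entries was -0.11. The libraries of both ages did not overlap for 143 entries (43.2%), with month 4 above for 56 (16.9%) and below for 87 (26.3%). The number of calls ranged from 147 without month 4 replicate 2 to 187 without month 4 replicate 4. The median of all entries was -0.24 with DESeq2 size factors and -0.29 with library totals alone, so small changes carry that uncertainty of scale. The counts given for each list below stand against these shares of 26.9% higher and 26.3% lower. Near-identical miRNAs can share reads, and how such reads were assigned was not stated.

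**Figure D2:**
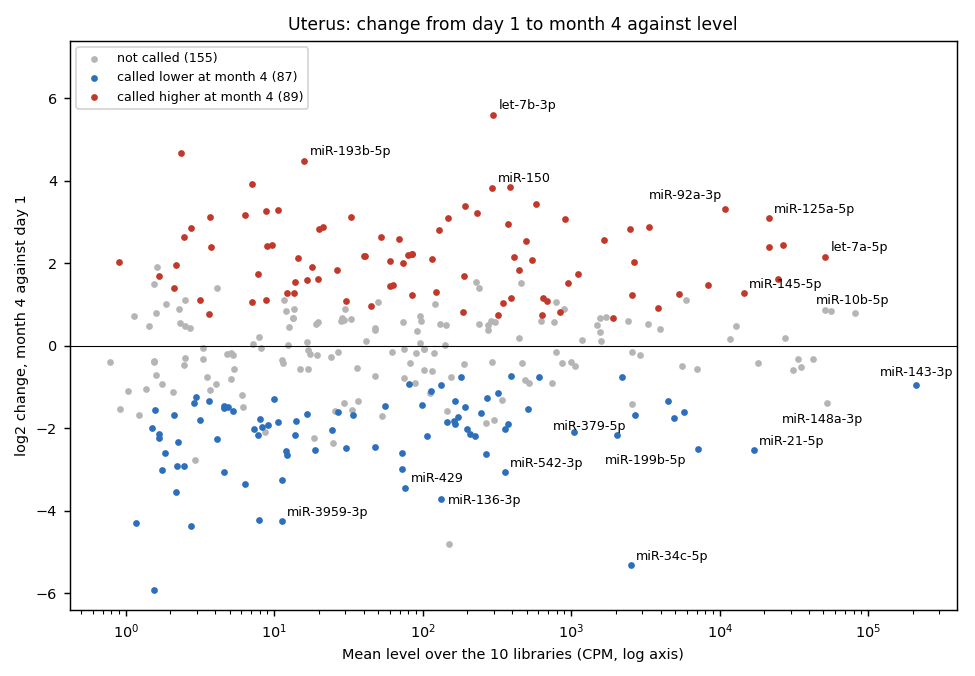
The log2 change from day 1 to month 4 of the 331 tested miRNAs (vertical axis) against their mean level over the 10 libraries (CPM, log axis). Colours mark the 89 called higher, the 87 called lower and the rest, and calls are spread over the whole range of levels.

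The largest rises among miRNAs with a mean of at least 10 CPM included the lymphocyte miRNA miR-150 and miR-125a-5p. They also included passenger strands of let-7 and products of the miR-17-92 family and its paralogs. let-7b-3p, the passenger strand of let-7b, held 11.4, 9.47, 19.2, 18.2 and 12.7 CPM at day 1 and 39.6, 128, 115, 2209 and 411 CPM at month 4. All month 4 libraries lay above day 1, and replicate 4 far above the rest. The log2 change was 5.61 ± 1.19 (SE, adjusted p = 0.000828), and 3.55 without month 4 replicate 4. miR-193b-5p rose from 1.51 ± 0.861 to 30.3 ± 17.98 CPM, a log2 change of 4.49 ± 0.62 (SE, adjusted p = 1.75e-05).

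miR-150, abundant in mature lymphocytes, held 29.3, 31.1, 36.8, 49.3 and 60.0 CPM at day 1 and 455, 564, 674, 440.2 and 606 CPM at month 4. The groups were far apart, the lowest month 4 library at 440.2 CPM and the highest day 1 library at 60.0. The log2 change was 3.83 ± 0.45 (SE, adjusted p = 6.56e-06). miR-195-3p, a strand of the miR-195/miR-497 hairpins, held 27.9, 18.7, 40.2, 41.6 and 49.5 CPM at day 1 and 260.3, 348, 314, 372 and 454 CPM at month 4, a log2 change of 3.40 ± 0.39 (SE, adjusted p = 6.56e-06). Neither miRNA had a month 4 library near the day 1 range.

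The most abundant product of the miR-17-92 family and its paralogs was miR-25-3p at day 1 and miR-92a-3p at month 4. miR-92a-3p held 2049, 1719.7, 2320.0, 3032 and 1931 CPM at day 1 and 14194, 19498, 24947, 27930 and 11031 CPM at month 4. It rose by 3.31 ± 0.51 (SE, adjusted p = 6.82e-05) on the log2 scale, with no overlap. miR-125a-5p, the mammalian homologue of worm lin-4, held 4209, 3624, 4913, 6056 and 5757 CPM at day 1 and 32292, 30945, 46256, 53281 and 26078 CPM at month 4. Its log2 change was 3.10 ± 0.48 (SE, adjusted p = 6.82e-05), again with no overlap. These were the most abundant of the 12 largest rises.

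miR-197-3p (log2 change 3.85 ± 0.67), miR-328-3p (3.45 ± 0.59), miR-25-5p (3.30 ± 0.44), let-7d-3p (3.22 ± 0.71), miR-1306-5p (3.13 ± 0.65) and miR-1343 (3.11 ± 0.54) completed the 12, with no overlap between ages. Month 4 replicate 4 was the highest month 4 library for each of these 6. miR-197-3p, for instance, held 301, 355, 396, 1539.5 and 991 CPM at month 4 against 41.6 to 67.9 CPM at day 1.

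The largest falls were in miR-34c-5p, in miRNAs of epithelium and of the DLK1-DIO3 and miR-424/miR-503 clusters, and in miR-21-5p. miR-34c-5p, a product of multiciliated cells and a p53 target, held 124, 209.8, 3864, 143 and 20233 CPM at day 1 and 66.5, 266, 148, 94.4 and 5.997 CPM at month 4. The groups overlapped, and only day 1 replicates 3 and 5 were high. Its log2 change of -5.32 ± 1.91 (SE, adjusted p = 0.0254) became -3.31 without day 1 replicate 5 (adjusted p = 0.0954), -0.32 without replicates 3 and 5 (adjusted p = 0.869), and -3.02 with the replicate number as a block (adjusted p = 0.288).

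miR-21-5p, raised in proliferating and inflamed tissues, was the most abundant of the 12 largest falls. It held 34693, 26465, 50545, 14772 and 19361 CPM at day 1 and 4821, 2557, 4502, 6579 and 4710.1 CPM at month 4. The highest month 4 library was below the lowest day 1 library, and the log2 change was -2.53 ± 0.54 (SE, adjusted p = 0.000899). miR-708-5p, which lies in an intron of Tenm4 (Odz4), fell from 130.2 ± 57.0 to 14.1 ± 15.1 CPM (log2 change -2.98 ± 0.74, adjusted p = 0.00264), and month 4 replicate 4 was its highest month 4 library.

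miR-374b-3p, from an X-linked hairpin, held 33.1, 18.4, 18.4, 18.4 and 16.3 CPM at day 1 and 1.404, 1.28, 1.38, 9.54 and 1.45 CPM at month 4. Month 4 replicate 4 was high among the month 4 libraries, but below day 1. Its log2 change of -2.55 ± 0.83 (SE, adjusted p = 0.0166) became -3.82 without that library. The other large falls, miR-3959-3p, miR-136-3p, miR-411b-5p, miR-134, miR-429, miR-182, miR-542-3p and miR-424-5p, belong to clusters described further on. miR-3959-3p, whose hairpin lies among the DLK1-DIO3 miRNAs, went from 21.5 ± 6.96 to 0.996 ± 0.364 CPM (log2 change -4.26 ± 0.63).

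Among guide strands of the let-7 family, which build up as tissues differentiate, 4 of 9 rose, 1 fell and 4 did not pass the test (median log2 change 1.11, against -0.11 for all entries). let-7b-5p averaged 8546 ± 1595 CPM at day 1 and 44819 ± 22131 at month 4 (log2 change 2.44 ± 0.48 SE, adjusted p = 0.000472). let-7c-5p (log2 change 1.61 ± 0.44) and let-7d-5p (1.73 ± 0.37) rose as well, the call of let-7c-5p being lost without day 1 replicates 3 and 5 (adjusted p = 0.0504). The fall was in miR-98-5p, from 779.6 ± 112 to 429 ± 95.3 CPM (log2 change -0.75 ± 0.28 SE, adjusted p = 0.0329), named after its value was seen. It missed the threshold on leaving out any of 8 single libraries, with adjusted p-values from 0.0521 (without month 4 replicate 2) to 0.0873 (without day 1 replicate 3). let-7f-5p, let-7i-5p, let-7g-5p (log2 change 0.18 ± 0.28) and let-7e-5p (1.11 ± 0.49) were not called, and the first 3 of these were the most abundant members at day 1. Without overlap, month 4 lay above day 1 for 3 of the 9 and below for 2, against 16.9% and 26.3% of all tested entries. The 2 below were miR-98-5p and let-7f-5p.

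The summed level of the family ranged from 147791 to 183704 CPM at day 1 and 104545 to 401515 CPM at month 4. Month 4 replicate 4 held the lowest sum, 104545 CPM. let-7 members differ by few bases, so the split between them depends on how reads were assigned. Of the passenger strands 2 of 7 rose, let-7b-3p and let-7d-3p, and none fell (median 0.03). That median had no stable sign, running from -0.83 without month 4 replicate 4 to 0.32 without month 4 replicate 1. Without month 4 replicates 4 and 5 it was -0.98, with 3 of the 7 lower, and with DESeq2 size factors 1 was lower.

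The miR-99/miR-100 and miR-125 families share transcripts with let-7 genes. Of 9 tested members 5 rose and none fell (median 0.86). miR-125b-5p rose from 7659 ± 961 to 34979 ± 14885 CPM (log2 change 2.39 ± 0.47 SE, adjusted p = 0.000472), and miR-99b-5p from 4665 ± 638 to 11888 ± 4613 CPM (1.47 ± 0.36 SE, adjusted p = 0.00264). miR-125a-5p has been given above, and miR-125a-3p (log2 change 2.63 ± 0.50), named after its value was seen, rose too. miR-125b-3p (log2 change 0.81 ± 0.27, adjusted p = 0.0178) missed the threshold without month 4 replicate 2 (adjusted p = 0.0518). The abundant miR-99a-5p (log2 change 0.86 ± 0.43, adjusted p = 0.0924) and miR-100-5p (0.17 ± 0.26) did not pass. With DESeq2 size factors or library totals 1 member was lower.

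Members of the miR-17-92 family of clusters, known for promoting cell growth, moved in both directions. Of 16 tested members, counting both arms, 7 rose and 3 fell (median -0.47). Without overlap, month 4 lay above day 1 for 5 members and below for 6, against 16.9% and 26.3% of all tested entries. Some rises were in minor strands, such as miR-25-5p with at most 2.35 CPM at day 1 and 26.4 CPM at month 4. The median lay between -1.17 (without day 1 replicate 5) and -0.48 (without day 1 replicate 2) on leaving out 1 library, and was 0.12 over 15 entries with only the compared groups in the fit. Besides miR-92a-3p, miR-25-3p rose from 3339 ± 218 to 7300.2 ± 2286 CPM (log2 change 1.27 ± 0.29 SE, adjusted p = 0.00125), and miR-106b-3p from 530.2 ± 104 to 1379.6 ± 278 CPM (1.52 ± 0.30 SE, adjusted p = 0.000482). The 3 that fell were miR-18a-5p (log2 change -3.01 ± 0.94), miR-20b (-1.40 ± 0.40, not called with no filter on low counts) and miR-363-3p (-1.30 ± 0.48), with day 1 means of 3.18, 4.23 and 14.4 CPM, the last 2 named after their values were seen. miR-363-3p missed the threshold on leaving out any of 7 single libraries, the adjusted p reaching 0.116 without month 4 replicate 3. The number lower was 7 with DESeq2 size factors and 7 with library totals, where 6 were higher, and it ranged from 2 without month 4 replicate 2 to 6 without day 1 replicate 1, month 4 replicate 3 or month 4 replicate 5. Guide strands such as miR-106b-5p (log2 change -1.71 ± 0.74 SE, adjusted p = 0.0574) did not pass with TMM scaling. The summed level, mostly miR-92a-3p and miR-25-3p, ranged from 6847 to 8508 CPM at day 1 and 17677 to 37221 CPM at month 4.

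In the miR-15/16 family the 5p strands restrain the cell cycle, and the list held both arms. Of 8 tested entries 1 rose and 2 fell (median 0.23, and 0.04 without month 4 replicate 1). The rise was in the 3p strand miR-195-3p given above, while miR-195-5p was not called (log2 change -1.10 ± 1.12 SE, adjusted p = 0.404). The falls were in miR-15a-5p (log2 change -1.49 ± 0.52, adjusted p = 0.0232) and miR-15b-3p (-1.23 ± 0.43, adjusted p = 0.0233), with day 1 means of 7.45 and 4.20 CPM. miR-15a-5p missed the threshold without month 4 replicate 2 (adjusted p = 0.0505). miR-15b-3p did so on leaving out any of 6 single libraries, with adjusted p-values from 0.0501 (without month 4 replicate 1) to 0.114 (without day 1 replicate 4). The abundant miR-16a-5p (log2 change 0.69 ± 0.33) and miR-16b-5p (0.90 ± 0.40) were not called.

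The miR-424/miR-503 cluster is X-linked in mammals and its products act on the cell cycle. Of its 6 tested entries 1 rose and 3 fell (median -1.28). miR-542-3p held 1231, 756, 453, 523 and 267 CPM at day 1 and 67.2, 39.4, 63.2, 135 and 21.1 CPM at month 4. Every month 4 library was below every day 1 library, and the log2 change was -3.06 ± 0.72 (SE, adjusted p = 0.00160). miR-450-5p fell from 383 ± 134 to 112 ± 29.2 CPM (log2 change -1.63 ± 0.35 SE, adjusted p = 0.000954). miR-424-5p fell from 128 ± 45.9 to 17.4 ± 13.9 CPM (log2 change -2.60 ± 0.94 SE, adjusted p = 0.0263) and missed the threshold without month 4 replicate 2 (adjusted p = 0.0585), whereas its other arm miR-424-3p rose from 30.5 ± 9.12 to 129 ± 59.1 CPM (2.21 ± 0.44 SE, adjusted p = 0.0005).

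The DLK1-DIO3 cluster is an imprinted region whose many miRNAs are expressed from the maternal chromosome, above all in fetal tissue. Of its 64 entries 48 were tested, of which 24 fell, 7 rose and 17 did not pass (median -1.19, against -0.11 for all entries). miR-379-5p held 4939.9, 5391, 3688, 3878 and 2908 CPM at day 1 and 944, 1075, 895, 1312 and 1698 CPM at month 4. The groups did not overlap, and the log2 change was -1.68 ± 0.28 (SE, adjusted p = 0.000141). miR-411a-5p fell from 1744 ± 509 to 344 ± 211 CPM (log2 change -2.10 ± 0.54 SE, adjusted p = 0.00326), and miR-382-3p from 376 ± 33.2 to 72.4 ± 24.9 CPM (-2.20 ± 0.38 SE, adjusted p = 0.00017).

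miR-136-3p held 262, 368, 184, 206 and 232 CPM at day 1 and 11.7, 6.02, 7.86, 49.1 and 3.27 CPM at month 4, without overlap (log2 change -3.72 ± 1.09 SE, adjusted p = 0.00870). miR-411b-5p (log2 change -3.26 ± 1.07) and miR-134 (-2.64 ± 0.85) fell from means of 20.6 and 21.5 CPM. The most abundant member of the cluster, miR-127-3p, did not pass (log2 change 0.48 ± 0.30 SE, adjusted p = 0.164), with 11174 ± 2353 CPM at day 1 and 14732 ± 7014 at month 4. The summed level, to which miR-127-3p gave the most, overlapped, from 16175 to 26404 CPM at day 1 and 11423 to 35030 CPM at month 4.

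The number of rises in this cluster depended on single libraries. Without month 4 replicate 5 there were 2 higher and 26 lower, and without month 4 replicates 4 and 5 there was 1 higher and 26 lower. miR-433, for example, held 24.6, 77.7, 78.0, 59.9 and 242 CPM at month 4 against 14.8 to 46.1 at day 1, and its log2 change of 2.05 ± 0.61 (SE, adjusted p = 0.0101) became 1.40 without month 4 replicate 5 (adjusted p = 0.0516). miR-433 was named after its value was seen. miR-485-5p, named likewise, was the rise without overlap (log2 change 2.10 ± 0.43 SE, adjusted p = 0.000662). Over the settings that left out 1 library the falls numbered 20 (without month 4 replicate 2) to 26 (without month 4 replicate 4 or 5).

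**Figure D3:**
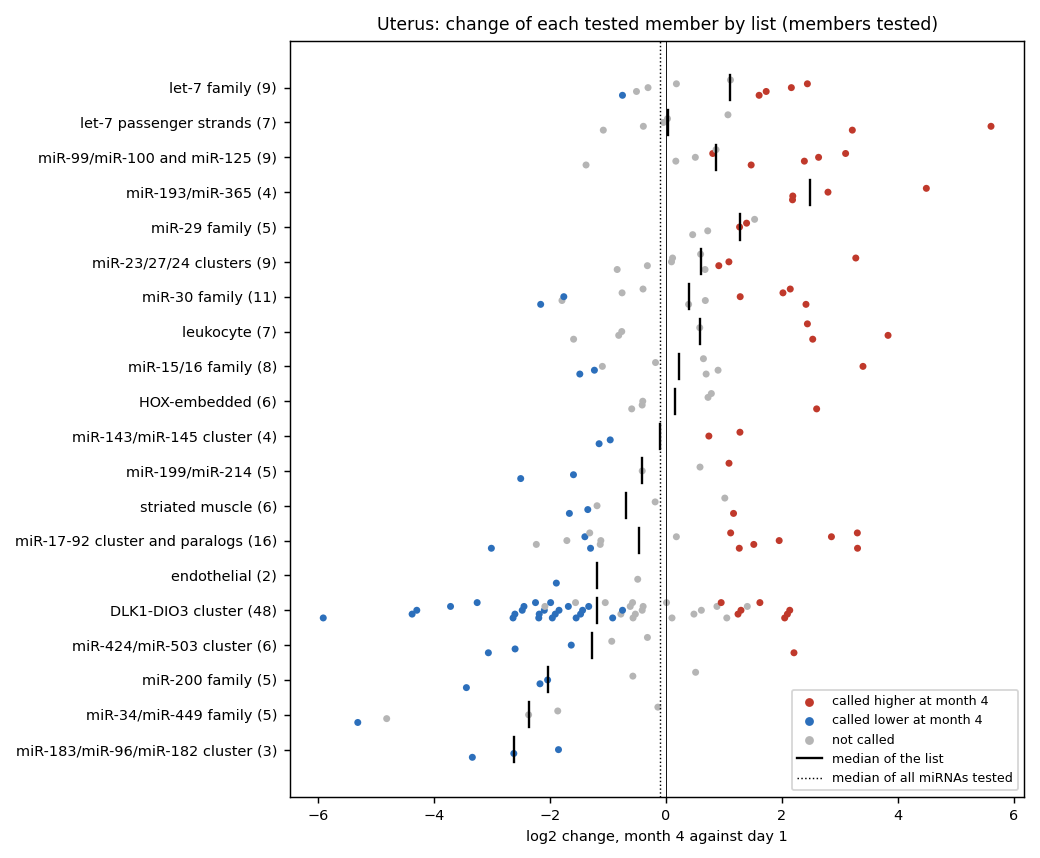
The log2 change of each tested member (points) by list, with the number tested in brackets, a bar at the median of each list and a dotted line at the median of all tested miRNAs, -0.11. The miR-193/miR-365 list has all 4 members called higher, and the DLK1-DIO3 list has 24 of 48 called lower.

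The smooth muscle miRNAs miR-143 and miR-145, transcribed together and abundant in the muscular wall, moved apart. Both miR-143 arms fell and both miR-145 arms rose. With no filter on low counts both miR-145 arms were called and neither miR-143 arm. miR-145-5p held 6687, 7186, 8785, 10852 and 12266 CPM at day 1 and 19559, 21278, 18826, 25426 and 13931 CPM at month 4. All month 4 libraries lay above day 1, with a log2 change of 1.28 ± 0.28 (SE, adjusted p = 0.000943). miR-143-5p had a log2 change of -1.15 ± 0.32 (SE, adjusted p = 0.00602) and miR-145-3p one of 0.74 ± 0.30 (SE, adjusted p = 0.0421). The rise of miR-145-3p missed the threshold on leaving out any of 8 single libraries, with adjusted p-values from 0.0516 (without day 1 replicate 3) to 0.154 (without month 4 replicate 4), and with library totals alone (adjusted p = 0.0864). The smooth muscle sum, mostly miR-143-3p, ranged from 235898 to 334449 CPM at day 1 and 108270 to 219860 CPM at month 4. Of these markers miR-143-3p was among the most abundant miRNAs in all 10 libraries.

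The miR-199/miR-214 hairpins are strong in fibroblasts and stroma. Of 5 tested entries 2 fell and 1 rose (median -0.41). miR-199b-5p held 11027, 12754, 12056, 13220 and 12915 CPM at day 1 and 1840.3, 1782, 2413, 2441 and 1305 CPM at month 4. The ages did not overlap, and the log2 change was -2.51 ± 0.40 (SE, adjusted p = 9.00e-05). miR-199a-5p fell from 8917 ± 2126 to 2569.7 ± 1233 CPM (log2 change -1.60 ± 0.53 SE, adjusted p = 0.0176), miR-199a-3p had a log2 change of -0.41 ± 0.34 (SE, adjusted p = 0.3004), and miR-214-3p rose from 469.5 ± 149 to 894 ± 300.3 CPM (1.09 ± 0.33 SE, adjusted p = 0.0105). The call of miR-214-3p was lost with at least 10 CPM required in at least 5 libraries (adjusted p = 0.0738) and without day 1 replicates 3 and 5 (adjusted p = 0.0727). The median was -0.62 without month 4 replicate 3. The summed level ranged from 34415 to 54815 CPM at day 1 and 9139.7 to 26222 CPM at month 4.

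The miR-29 family, which represses collagen messages, had 2 of 5 tested entries higher (median 1.27). The dominant miR-29a-3p averaged 262 ± 188 CPM at day 1 and 655 ± 402 at month 4 and did not pass (log2 change 1.53 ± 0.73 SE, adjusted p = 0.0796). The 2 called entries were the minor strands miR-29c-5p (log2 change 1.27 ± 0.51, adjusted p = 0.0421) and miR-29b-5p (1.39 ± 0.57, adjusted p = 0.0465). miR-29c-5p missed the threshold on leaving out any of 8 single libraries (adjusted p up to 0.114, without month 4 replicate 1) and miR-29b-5p any of 7 (up to 0.135, without the same library).

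In epithelium the miR-200 family keeps E-cadherin expressed by repressing ZEB factors. Of its 5 members 3 fell and none rose (median -2.04). miR-200a held 2724, 2469.9, 3156, 3158 and 5634 CPM at day 1 and 744, 669, 826, 1028 and 47.1 CPM at month 4, a log2 change of -2.17 ± 0.64 (SE, adjusted p = 0.00903). miR-429 held 115, 89.0, 165, 151 and 184 CPM at day 1 and 10.1, 24.3, 14.5, 8.43 and 1.09 CPM at month 4, a log2 change of -3.44 ± 0.74 (SE, adjusted p = 0.000894). Neither overlapped between ages, and month 4 replicate 5 was lowest for both. Without that library the changes were -2.03 (adjusted p = 0.00527) and -3.26 (adjusted p = 0.00143).

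The family's most abundant member, miR-200b, did not follow, and nor did miR-200c. miR-200b averaged 8734 ± 3878 CPM at day 1 and 5436 ± 3523 at month 4 (log2 change -0.57 ± 0.60 SE, adjusted p = 0.421), and miR-200c 1294 ± 410.0 and 1668 ± 962 CPM (0.51 ± 0.52 SE, adjusted p = 0.404). miR-141, which shares a transcript with miR-200c, fell (log2 change -2.04 ± 0.85 SE, adjusted p = 0.0487). That call was lost without month 4 replicate 1 (adjusted p = 0.0957) or replicate 2 (0.0976), while the change was -3.49 without replicate 4. miR-200b and miR-200c differ by few bases and may share reads. The summed epithelial level ranged from 7181 to 20332 CPM at day 1 and 963 to 12463 CPM at month 4, with the lowest sum, 963 CPM, in month 4 replicate 5.

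All 3 members of the miR-183/miR-96/miR-182 cluster, expressed in epithelial and sensory cells, fell (median -2.63). miR-182 held 215, 186, 713, 674 and 559 CPM at day 1 and 80.3, 39.9, 108, 91.1 and 21.8 CPM at month 4. The ages did not overlap, and the log2 change was -2.63 ± 0.58 (SE, adjusted p = 0.00104). miR-183 (-1.85 ± 0.62 SE, adjusted p = 0.0176) and miR-96 (-3.34 ± 0.85 SE, adjusted p = 0.00316) had log2 changes in the same direction. The call of miR-183 was lost without month 4 replicates 4 and 5 (adjusted p = 0.0615) or without day 1 replicates 3 and 5 (0.0779).

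The miR-34/miR-449 family acts in multiciliated epithelium, and 5 of its 10 entries were tested, of which miR-34c-5p fell (median -2.37, -0.35 without day 1 replicate 5, and 0.53 without day 1 replicates 3 and 5). miR-449a-5p held 30.9, 24.5, 841, 2.07 and 558 CPM at day 1 and 1.54, 36.5, 11.03, 2.23 and 0 CPM at month 4 (log2 change -4.82 ± 2.08 SE, adjusted p = 0.0569). As for miR-34c-5p, the high values were those of day 1 replicates 3 and 5. miR-34b-3p (-1.87 ± 1.34 SE, adjusted p = 0.228) and miR-34c-3p (-2.37 ± 1.40 SE, adjusted p = 0.146) did not pass, and both log2 changes were above 0, at 2.53 and 1.99, without these day 1 libraries. The summed level ranged from 178 to 22802 CPM at day 1 and 20.0 to 663 CPM at month 4.

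The miRNAs embedded in HOX clusters mark position along the body axis. Of 6 tested, 1 rose, miR-196a (log2 change 2.60 ± 0.96 SE, adjusted p = 0.0287), with 38.8, 29.1, 11.1, 14.8 and 11.99 CPM at day 1 and 146, 243, 21.6, 6.04 and 172 CPM at month 4. Its groups overlapped. The call was lost on leaving out any of 5 single libraries, with adjusted p-values from 0.0564 (without month 4 replicate 5) to 0.0743 (without month 4 replicate 2). The ratio of miR-10a-5p to miR-10b-5p, which lie in different HOX clusters, was 0.372, 0.164, 2.01, 0.149 and 2.61 at day 1 and 0.177, 0.297, 0.236, 0.232 and 0.516 at month 4. Day 1 replicates 3 and 5 alone held more miR-10a-5p than miR-10b-5p, and they were the libraries with high miR-34c-5p. Without them the log2 change of miR-10a-5p was 0.51 (adjusted p = 0.316) in place of -0.59 (adjusted p = 0.281).

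Of the leukocyte miRNAs, 3 of 7 tested entries rose and none fell (median 0.58). Besides miR-150, miR-155-5p, induced in activated lymphocytes and macrophages, held 127, 141, 165, 122 and 177 CPM at day 1 and 607, 804, 878, 205 and 1701 CPM at month 4. The ages did not overlap, although month 4 replicate 4 lay close to day 1, and the log2 change was 2.53 ± 0.46 (SE, adjusted p = 0.000233). miR-342-5p rose from 3.04 ± 0.801 to 16.4 ± 14.1 CPM (log2 change 2.44 ± 0.50 SE, adjusted p = 0.000617), and its more abundant partner miR-342-3p did not pass (0.58 ± 0.28 SE, adjusted p = 0.0797). The myeloid miR-223-3p reached at most 12.5 CPM in any of the 10 libraries (log2 change -0.82 ± 0.52 SE, adjusted p = 0.177). miR-146a averaged 40.2 ± 7.80 CPM at day 1 and 11.4 ± 9.27 at month 4 (log2 change -1.59 ± 0.71 SE, adjusted p = 0.0642). It was called lower with DESeq2 size factors and with library totals. The list also had 1 entry lower with the Wald test of DESeq2, with the replicate number as a block, and with at least 10 CPM required in at least 5 libraries. Without overlap, month 4 lay above day 1 for 3 of the 7 tested entries and below for 1. The summed leukocyte level ranged from 710.5 to 1142 CPM at day 1 and 1738 to 3141 CPM at month 4, and the part of leukocyte number in other results was not tested.

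**Figure D4:**
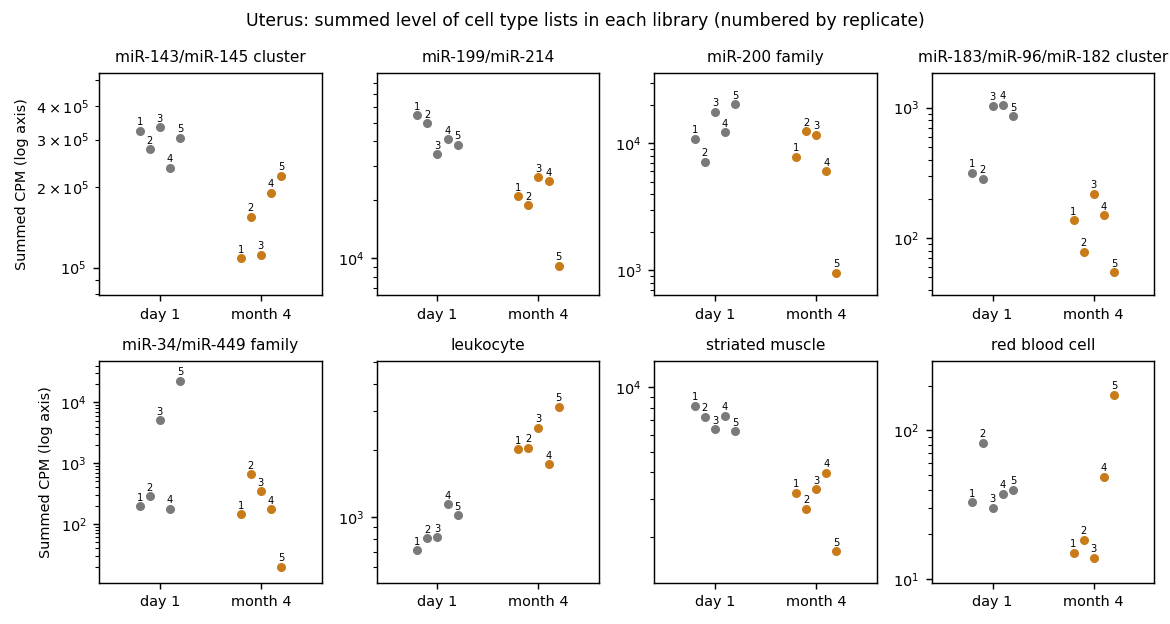
Summed level of 8 marker lists in each uterus library (CPM, log axis), with points numbered by replicate. Leukocyte sums are higher in every month 4 library. Striated muscle sums, mostly miR-1, are lower in every one, and the miR-200 sum of month 4 replicate 5 is the lowest of the 10.

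Of the endothelial and red blood cell markers 1 of 2 entries each fell. The endothelial sum ranged from 5204 to 7939 CPM at day 1 and 3493 to 6092 CPM at month 4, and the red blood cell sum from 30.2 to 82.6 CPM at day 1 and 13.9 to 174 CPM at month 4. miR-126-5p, from an endothelial host gene, fell from 267 ± 42.8 to 63.5 ± 16.9 CPM (log2 change -1.89 ± 0.42 SE, adjusted p = 0.00106), while the dominant arm miR-126-3p did not pass (-0.49 ± 0.31 SE, adjusted p = 0.171). The red blood cell miRNA miR-451-5p averaged 41.8 ± 20.6 CPM at day 1 and 53.4 ± 68.1 at month 4 (log2 change 0.37 ± 0.64 SE, adjusted p = 0.616), and was -0.74 without month 4 replicate 5. miR-144-5p, its cluster partner, fell (log2 change -2.24 ± 0.71 SE, adjusted p = 0.0138) from a mean of 2.77 CPM. No entry was analysed for the squamous and basal markers miR-203 and miR-205, nor for the leukocyte marker miR-142. The gonadal miR-202 stayed at or below 0.954 CPM in all 10 libraries.

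The striated muscle list had 2 of 6 tested members lower and 1 higher (median -0.69). miR-1 held 7874, 6821, 6114, 6873 and 5760.5 CPM at day 1 and 2615, 1736, 2260.4, 3515 and 1334 CPM at month 4. The ages did not overlap, yet the log2 change of -1.35 ± 0.50 (SE, adjusted p = 0.0285) missed the threshold without month 4 replicate 2 (adjusted p = 0.0677). miR-499-5p fell from 26.3 ± 7.42 to 7.003 ± 5.56 CPM (log2 change -1.67 ± 0.65 SE, adjusted p = 0.0368) and lost its call without month 4 replicate 1 (adjusted p = 0.0512) or 2 (0.0819). miR-133a-3p rose from 259.7 ± 77.4 to 527 ± 225 CPM (1.17 ± 0.32 SE, adjusted p = 0.00499). miR-1 and miR-133a are also expressed in smooth muscle.

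The neural and endocrine list and the liver and gut list each had 1 of 4 tested entries lower, close to the 26.3% of all tested miRNAs. In the first it was miR-9-3p (log2 change -1.59 ± 0.55 SE, adjusted p = 0.0220), from a day 1 mean of 8.15 CPM. Its call was lost without day 1 replicate 2 (adjusted p = 0.0576) or month 4 replicate 2 (0.0580). In the other it was miR-192-5p, from 786 ± 16.8 to 232 ± 127 CPM (log2 change -1.54 ± 0.54 SE, adjusted p = 0.0233), with adjusted p = 0.0582 without month 4 replicate 2. These numbers depended on the setting. With DESeq2 size factors or library totals 2 of 4 liver and gut entries were lower. Of the neural and endocrine entries 2 were lower without month 4 replicate 5. Neither list had a lower entry without month 4 replicate 2.

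Families without a single cell type were also counted. All 4 entries of the miR-193/miR-365 list rose (median 2.49). miR-365-3p held 31.7, 18.2, 27.4, 44.6 and 52.7 CPM at day 1 and 204, 198, 247, 225 and 236 CPM at month 4, without overlap (log2 change 2.80 ± 0.34 SE, adjusted p = 8.98e-06). miR-193a (2.18 ± 0.38) and miR-193b-3p (2.19 ± 0.38) had counts within 3.13% of each other in every library, so they stand as 1 measurement.

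In the miR-30 family 4 of 11 rose and 2 fell (median 0.39, and -0.06 without month 4 replicate 4). Without overlap, month 4 lay above day 1 for 4 entries and below for 5, against 16.9% and 26.3% of all tested entries. The number lower was 5 with at least 10 CPM required in at least 5 libraries, and 1 without month 4 replicate 2. The summed level ranged from 7498 to 11728 CPM at day 1 and 3136 to 10839 CPM at month 4. miR-30f-5p rose from 164 ± 36.7 to 661 ± 552 CPM (log2 change 2.15 ± 0.58 SE, adjusted p = 0.00498). Without month 4 replicates 4 and 5 its change was 0.70 (adjusted p = 0.215), and the call was lost. Its other arm miR-30f-3p rose too (2.02 ± 0.43 SE, adjusted p = 0.000854), by 1.32 without month 4 replicate 5. miR-30a-5p fell from 7824 ± 1881 to 1949.8 ± 1369 CPM (-1.76 ± 0.67 SE, adjusted p = 0.0336), a call lost without month 4 replicate 2 (adjusted p = 0.0773). The other fall was in miR-30d-3p (log2 change -2.16 ± 0.50), named after its value was seen.

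The miR-23/27/24 clusters had 3 of 9 entries higher and none lower (median 0.60). These were miR-23b-5p (log2 change 3.28 ± 0.58 SE, adjusted p = 0.00019), miR-23b-3p (0.91 ± 0.29 SE, adjusted p = 0.0130) and miR-27b-5p (1.09 ± 0.35 SE, adjusted p = 0.0158). The calls of miR-23b-3p and miR-27b-5p were lost without day 1 replicate 3 (adjusted p = 0.0507) and day 1 replicate 1 (0.0547), respectively. With DESeq2 size factors or library totals 1 entry of these clusters was lower. With at least 10 CPM required in at least 5 libraries 1 was higher and 1 lower. In the miR-181 family, which tunes lymphocyte signalling, 1 of 4 rose, miR-181b-5p (1.04 ± 0.33 SE, adjusted p = 0.0130), and 1 fell, miR-181c-3p (-1.82 ± 0.64 SE, adjusted p = 0.0232), whose adjusted p was 0.0565 without month 4 replicate 2. The call of miR-181b-5p was lost with the stricter filter on low counts (adjusted p = 0.0541) and without day 1 replicates 3 and 5 (adjusted p = 0.0718).

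Both arms were tested for 102 hairpins. Both were called for 25 of them, with 18 higher on both arms, 5 lower on both and 2 in opposite directions. For 52 hairpins 1 arm was called, and for 25 neither. The median absolute difference between the log2 changes of both arms was 1.10, against a median absolute mean change of 0.982. Of 134 entries named as 3p arms 44 rose and 30 fell (median 0.36). Of 145 named as 5p arms 34 rose and 40 fell (median -0.18), and of 52 without an arm 11 rose and 17 fell (median -0.46). Whether the 3p and 5p entries differed as classes was not tested.

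The hairpins with opposite calls were miR-424 and miR-18a, each with a lower 5p arm and a higher 3p arm at month 4. The 5p arm held 79.9% ± 6.97 of the miR-424 reads at day 1 and 13.7% ± 13.7 at month 4. Libraries ranged from 68.8% to 87.1% at day 1 and from 0.831% to 34.8% at month 4, with no overlap. For miR-18a the share was 73.7% ± 17.6 at day 1 and 8.32% ± 4.82 at month 4, on means of 3.18 and 0.336 CPM for the 5p arm and 0.934 and 3.41 CPM for the 3p arm.

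Other hairpins had 1 moving arm, and were named after their values were seen. The miR-195 hairpin had miR-195-3p higher and miR-195-5p uncalled (log2 change -1.10 ± 1.12 SE, adjusted p = 0.404) at means of 1.48 and 0.584 CPM. In miR-127 the minor arm miR-127-5p fell (log2 change -2.45 ± 0.65 SE, adjusted p = 0.00414), and the major arm miR-127-3p did not pass. In miR-382 the arm miR-382-3p fell, and miR-382-5p did not pass (log2 change 0.61 ± 0.42 SE, adjusted p = 0.209). In miR-30b the arm miR-30b-3p rose (log2 change 2.42 ± 0.42 SE, adjusted p = 0.00017), and the more abundant miR-30b-5p did not pass (-0.76 ± 0.50 SE, adjusted p = 0.190). miR-338-3p fell (log2 change -2.13 ± 0.75 SE, adjusted p = 0.0232, adjusted p = 0.0587 without month 4 replicate 2), and miR-338-5p did not pass (1.10 ± 0.65 SE, adjusted p = 0.151).

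**Figure D5:**
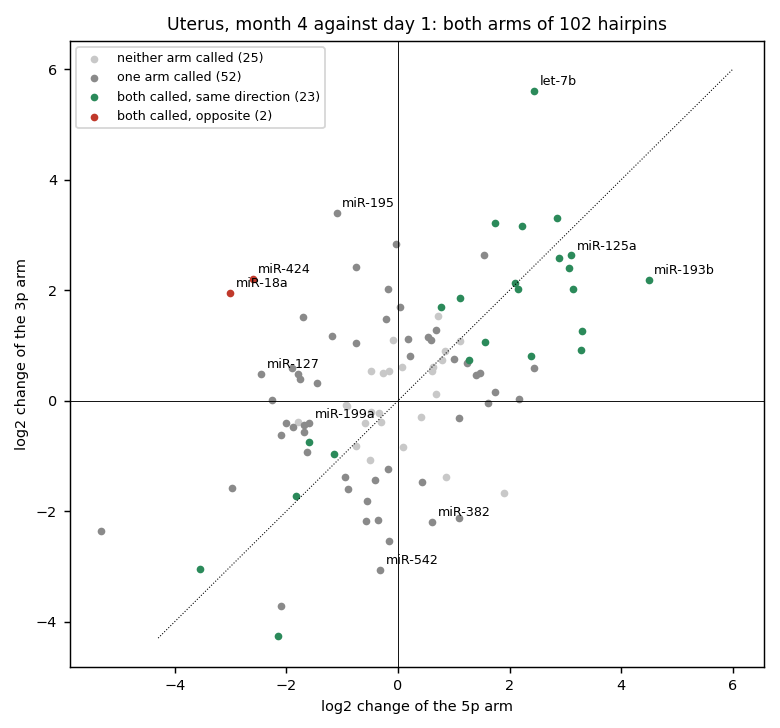
The log2 change of the 3p arm (vertical axis) against that of the 5p arm (horizontal axis) for 102 hairpins, with a dotted line where both are equal. Colours show how many arms were called, and miR-424 and miR-18a stand at the upper left as the 2 with opposite calls.

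Genomic neighbours were taken from the RefSeq annotation of the goat assembly ARS1.2, used for names and order only. Of 263 hairpin names 261 were matched, and 132 of these lay within 10 kb of another hairpin, in 38 groups. The largest group, 38 hairpins from miR-379 to miR-656 of the DLK1-DIO3 region, held 42 tested entries, of which 24 fell and 6 rose (median -1.41). The adjoining group with miR-127, miR-136 and miR-433 held 9 tested entries, of which 3 fell and 1 rose (median -1.05). The group of miR-106b, miR-93 and miR-25 had 4 of 6 entries higher and none lower (median 1.19), and the pair let-7a and let-7b 3 of 4 higher (median 2.30). Of the neighbours miR-454 and miR-301a 2 of 3 entries fell, miR-454-3p (log2 change -2.16 ± 0.39) and miR-301a-5p (-1.51 ± 0.38), both named after their values were seen.

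Values at the other uterine ages are given beside these, and they share the day 1 libraries. Month 2 against day 1 had 91 calls of 331 (27.5%) and month 6 against day 1 had 155 (46.8%). miR-150 averaged 333 ± 209 CPM at month 2 and 434 ± 182 at month 6, with log2 changes from day 1 of 2.94 ± 0.43 and 3.46 ± 0.44 beside 3.83 ± 0.45 at month 4. miR-125a-5p changed by 2.31 ± 0.47 and 3.13 ± 0.48, beside 3.10 ± 0.48 at month 4. miR-21-5p averaged 5031 ± 4767 CPM at month 2 and 8201 ± 1910.2 at month 6, with log2 changes of -2.42 ± 0.54 and -1.82 ± 0.53 beside -2.53 ± 0.54. miR-379-5p changed by -1.36 ± 0.28 and -1.40 ± 0.28, beside -1.68 ± 0.28.

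Compared directly, month 4 differed from month 2 for 0 of 331 miRNAs by edgeR and from month 6 for 0 of 331. At an unadjusted p under 0.05 there were 61 (18.4%) and 15 (4.53%). Both comparisons share the month 4 libraries with the one against day 1.

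In the ovary, month 4 against day 1 had 169 calls of 317 tested (53.3%). Of 313 miRNAs tested in both tissues, 164 were called in uterus and 167 in ovary, and 118 were called in both in the same direction, 72.0% of the uterine and 70.7% of the ovarian calls. None was called in opposite directions. miR-150 had a log2 change of 3.58 ± 0.59 in ovary, miR-125a-5p one of 2.39 ± 0.53, miR-21-5p one of -2.23 ± 0.67 and miR-379-5p one of -1.45 ± 0.48.

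The difference of the age change between uterus and ovary was tested itself over all 40 libraries. edgeR called 0 of 350 miRNAs, with 29 (8.29%) at an unadjusted p under 0.05, and DESeq2 called 1, miR-215-5p. In simulated counts the edgeR test called 57.3% of 4-fold and 17.1% of 2-fold differences. The 0 calls therefore do not show that both tissues changed alike. The smallest p-values were those of miR-215-5p (difference of log2 changes 4.52 ± 1.14, adjusted p = 0.113) and miR-193b-3p (2.46 ± 0.71, adjusted p = 0.170), both named after their values were seen. miR-215-5p was listed at means of 2.23 and 2.76 CPM in uterus and 13.5 and 1.43 CPM in ovary, at day 1 and month 4. Its log2 change was 0.47 ± 0.73 in uterus and -3.94 ± 0.78 in ovary. Without ovary day 1 replicate 5 edgeR called 3 differences, miR-215-5p, miR-193a and miR-193b-3p, and without ovary day 1 replicate 1 or 2 it called miR-215-5p alone. No change is called particular to the uterus here.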

How the data were processed

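Small RNA of ovary and uterus was sequenced from total RNA extracted with TRIzol, per the labels' protocols. The authors deposited 1 table of read counts per mature miRNA and library, all whole numbers and not normalized, as tested on the values. Tools listed are RSEM 1.3.0, Bowtie 1.0.1 and cutadapt 1.16, per the submitters' processing notes, which state no role for them. Genome build, annotation of miRNAs and handling of reads that match several of them are not given in the sources used here, so no positions are printed. No table of miRNA sequences was used here. Each count column was matched to a sample by its name, and 0 columns belonged to no sample.

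The counts were tested with edgeR 4.0.16 in R 4.3.3 (filterByExpr, TMM scaling, glmQLFit and glmQLFTest), the group being the only factor. All 20 uterus libraries entered the fit of month 4 against day 1, so 4 ages shared the estimate of spread (common biological coefficient of variation 0.598). All 40 libraries entered the fit of the difference between tissues (350 miRNAs tested). P-values are two-sided and adjusted by Benjamini-Hochberg over all miRNAs tested, with a threshold of 0.05. The SE is the size of the log2 change over the root of its F statistic. CPM uses the library total without TMM factors. Principal components used log2 CPM with a prior count of 2. Individuals are numbered in the labels and were treated as independent animals. Litters, batches and sequencing dates were not available in the labels, so the p-values measure the spread between these libraries. Totals ran from 5502588 to 8442089 reads.

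The members and the 26 lists were chosen with earlier results of these data known. Named were the 12 largest called changes in each direction with a mean of at least 10 CPM, the 10 most abundant miRNAs, up to 4 called members per list by level, members of the tissue lists, hairpins with opposite arms, and any others marked in the text as named after their values were seen. Alternatives were DESeq2 1.42.0 size factors and Wald test, library totals, 2 other filters, a replicate block, only the compared groups, and leaving out libraries. Changing and unchanged miRNAs were tested on counts simulated from means over all 40 libraries. With the uterus fit 1.13% of unchanged miRNAs were called. Genomic neighbours came from the RefSeq table of ARS1.2, by name.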

Additional observations from a re-analysis of the deposited data

Results flagged for a closer look

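For each named miRNA the highest and lowest library of each age were set against the other 4 by Dixon's criterion for 5 samples (gap to the nearest library over the range above 0.71). Of 242 groups of 5 libraries, 37 library values passed. For normally distributed values chance alone picks about 1 in 20 groups. CPM were not transformed here and most flags were for a highest value, so that rate need not hold.

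Month 4 replicate 4 gave 11 of these. It was far above its group for let-7b-3p (2209 CPM, next library 411 CPM), miR-1306-5p (147 CPM, next library 48.3 CPM), miR-136-3p (49.1 CPM, next library 11.7 CPM), miR-141 (27.8 CPM, next library 4.35 CPM), miR-148a-3p (70499 CPM, next library 22606 CPM), miR-18a-5p (0.954 CPM, next library 0.276 CPM), miR-195-5p (2.38 CPM, next library 0.281 CPM), miR-328-3p (2345 CPM, next library 923 CPM), miR-374b-3p (9.54 CPM, next library 1.45 CPM), miR-411b-5p (6.20 CPM, next library 1.404 CPM) and miR-708-5p (40.9 CPM, next library 10.2 CPM).

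Month 4 replicate 5 gave 12 of these. It was far above its group for let-7i-5p (62546 CPM, next library 23175 CPM), miR-125a-3p (224 CPM, next library 76.5 CPM), miR-15b-3p (3.82 CPM, next library 1.65 CPM), miR-223-5p (7.63 CPM, next library 2.30 CPM), miR-23b-5p (39.3 CPM, next library 14.5 CPM), miR-30f-3p (308 CPM, next library 81.6 CPM), miR-338-5p (58.7 CPM, next library 9.99 CPM), miR-342-5p (40.5 CPM, next library 14.5 CPM), miR-363-3p (12.2 CPM, next library 4.87 CPM), miR-433 (242 CPM, next library 78.0 CPM), miR-451-5p (172 CPM, next library 48.5 CPM) and miR-485-5p (401 CPM, next library 165 CPM).

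Day 1 replicate 1 gave 5 of these. It was far above its group for miR-223-5p (14.5 CPM, next library 2.72 CPM), miR-374b-3p (33.1 CPM, next library 18.4 CPM) and miR-433 (46.1 CPM, next library 20.4 CPM). It was far below its group for miR-195-5p (0.402 CPM, next library 1.66 CPM) and miR-30a-5p (4461 CPM, next library 8538 CPM).

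Day 1 replicate 2 gave 2 of these. It was far above its group for miR-199a-5p (12555 CPM, next library 8649.7 CPM) and miR-451-5p (78.0 CPM, next library 37.4 CPM).

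Day 1 replicate 4 gave 2 of these. It was far above its group for let-7f-5p (59559 CPM, next library 47819 CPM) and miR-342-5p (4.42 CPM, next library 3.07 CPM).

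Day 1 replicate 5 gave 5 of these. It was far above its group for miR-141 (54.1 CPM, next library 39.6 CPM), miR-200a (5634 CPM, next library 3158 CPM), miR-34b-3p (1763 CPM, next library 284 CPM), miR-34c-3p (172 CPM, next library 31.6 CPM) and miR-34c-5p (20233 CPM, next library 3864 CPM).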

How the results depend on the processing

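With other settings the number of miRNAs called between month 4 and day 1 stayed within 1.5 times of 176. It was 188 (86 higher, 102 lower) with DESeq2 size factors, 185 (79 and 106) with library totals, 219 of 420 with no filter on low counts, 144 of 253 with at least 10 CPM in at least 5 libraries, 206 (97 and 109) with the Wald test of DESeq2 and 180 of 314 with only the compared groups in the fit. It was 236 without the libraries doubted in earlier work on these data (uterus month 2 replicate 1, month 4 replicate 4, month 6 replicates 4 and 5). Leaving out 1 uterus library at a time gave 147 to 187 calls. Of 2 settings added after seeing the data, leaving out month 4 replicates 4 and 5 gave 174 calls and leaving out day 1 replicates 3 and 5 gave 148. The median log2 change of all tested entries moved from -0.11 to -0.29 with library totals and lay between -0.22 and -0.09 without single libraries. The calls in the difference between uterus and ovary went from 0 to 1 with the Wald test of DESeq2, and ranged from 0 to 3 over the leave-one-out fits.

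With the replicate number as a block there were 174 calls (79 higher, 95 lower), and 0 in the difference between tissues. The numbers do not pair the samples by any label. Correlations of same-numbered day 1 and month 4 libraries, as deviations from group means, ran from -0.297 to 0.0279. No day 1 library matched the month 4 library of its own number best.

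Of 121 named miRNAs 88 were called, and 58 of these kept direction and call in every setting. Leaving out a uterus library ended 23 of the calls, and another setting ended 24. Without month 4 replicates 4 and 5, the called change of let-7b-3p was 2.70, of let-7d-3p 1.89, of miR-1306-5p 2.05, of miR-99b-5p 0.89 and of miR-125a-3p 1.74, each still called. No called miRNA changed direction. Uncalled ones did, and the cause was not tested. With no filter, let-7f-5p went to 0.034, miR-34a to 0.12 and miR-133b to 0.084, and with the stricter filter let-7g-5p went to -0.020. miR-34a was at 0.043 without the doubted libraries, at 0.28 without month 4 replicates 4 and 5 and at 0.53 without day 1 replicates 3 and 5, and ranged from -0.58 (without month 4 replicate 3) to 0.19 (without day 1 replicate 3). Without day 1 replicates 3 and 5, miR-10a-5p was at 0.51, miR-34b-3p at 2.53 and miR-34c-3p at 1.99. Without month 4 replicates 4 and 5, miR-451-5p was at -1.37 and miR-338-5p at -0.077. Without single libraries miR-34b-3p ranged from -2.67 to 0.27, miR-223-5p from -1.60 to 0.59, miR-451-5p from -0.74 to 0.87 and miR-338-5p from -0.35 to 1.66.

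The smallest library held 5502588 reads, and how calls depend on depth was not tested. Counts were also simulated from the mean of each miRNA over all 40 libraries, with the spread taken from the fit. No library was made to stand apart in them, so the shares called need not hold for the real libraries. With the uterus fit 79.0% of 4-fold and 24.3% of 2-fold changes were called. With the fit of the difference between tissues the shares were 57.3% and 17.1%.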

Other observations

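Some high values recurred outside the 2 ages compared. miR-34c-5p, high at day 1 in replicates 3 and 5, was at 3652 CPM in uterus month 2 replicate 1 and at 3157 CPM in month 6 replicate 3. The other uterus libraries of these ages held 16.4 to 390 CPM. In the ovary it ran from 22.6 to 1709 CPM at day 1 and from 2.89 to 5967 CPM at month 4. The ratio of miR-10a-5p to miR-10b-5p was 0.580 in uterus month 2 replicate 1 and 0.433 in month 6 replicate 3, the highest of their ages.

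let-7b-3p, at 2209 CPM in month 4 replicate 4, was at 2489 and 1198 CPM in uterus month 6 replicates 4 and 5, and at 103 to 206 CPM in the other month 6 libraries. At month 2 it lay between 6.57 and 86.1 CPM. In the ovary at month 4 it ran from 128 to 419 CPM.

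miR-202-5p, a gonadal miRNA, was at most 0.954 CPM in the 10 uterus libraries compared. In the ovary it ran from 2.61 to 7818 CPM at day 1 and from 27.5 to 252 CPM at month 4, so no compared uterus library reached the lowest ovarian level.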
